A study of Schizosaccharomyces pombe with 3 samples.

Results

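The nuclear genes for the respiratory chain and ATP synthase of fission yeast (Schizosaccharomyces pombe) were examined for binding of the corepressor protein Tup11. The set holds 31 genes, chosen by gene name: cytochrome c, 4 genes of complex II, 8 of complex III, 7 of complex IV and 11 of complex V. Array features were taken where their name, without the prefix for an intergenic region, was a member's symbol or current systematic name, and genes of the mitochondrial genome were left out. Of the 31 genes, 30 were found, with 59 of the 9997 features on the array: 29 intergenic features, each before the start of its namesake gene (upstream features below), and 30 open reading frame (ORF) features. No feature was found for cox7, and the intergenic product of atp4 is marked on the array as missing.

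Respiration passes electrons from succinate through complex II, complex III, the soluble carrier cytochrome c and complex IV to oxygen, and complex V, the ATP synthase, uses the resulting proton gradient. Some core subunits are encoded in the mitochondrial genome, while the genes examined here are nuclear and depend on nuclear transcription factors. Tup11 is 1 of the fission yeast relatives of Tup1, which is brought to promoters by DNA-binding repressors, and it takes part in keeping genes for other carbon sources low while glucose is plentiful. In budding yeast, the CCAAT-binding Hap complex activates many respiratory genes, and its fission yeast relatives are the Php proteins.

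Chromatin was cross-linked in mid-log cells of 1 strain, in which Tup11 carries green fluorescent protein (GFP), grown in rich YES medium. It was precipitated with an antibody against GFP, and the precipitate (Cy5) and input (Cy3) DNA, amplified beforehand, shared each array of PCR products. There are 3 such arrays from separate experiments: replicates 1 and 2 on print batch E120D and replicate 3 on print batch F060D. No untagged strain, other medium or respiratory carbon source was analysed here, so each value is precipitate over input in 1 strain under 1 condition and does not show how binding changes.

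Values are log2 ratios of precipitate over input, centred on the median of all features of the array, so that 0 is the array's median ratio and 1 is a ratio 2 times that median. The arrays differed in how many features gave a ratio: 7772 on replicate 1, 4406 on replicate 2 and 9934 on replicate 3. On the first 2 arrays, most missing ratios of the members were spots with precipitate but no input signal. Among upstream features this held for 8 on replicate 1 and 16 on replicate 2. The labels do not settle which channel of replicate 3 held the precipitate. Taken as B over A throughout, its ratios ran opposite to those of replicate 1 (r = -0.54, 7765 features) and replicate 2 (r = -0.38, 4403 features), while the latter arrays resembled each other (r = 0.72). The direction used below is the likely one, in which the precipitate is the channel that the authors' value table follows (A on replicate 3, B on the others), and for the features that passed and the main counts the values with the same letters on all arrays, which turn the sign of replicate 3, are given too. In the likely direction the 6 mitochondrial features measured on all arrays were low on each, with medians of -3.20, -3.91 and -2.12. The array's Ef1-b control spots did not keep 1 sign in that direction, with medians of -0.63, -0.78 and 0.74, nor did the ef1b ORF, with -0.57, -0.98 and 0.52. In the same letters the replicate 3 values of these sets are 2.12, -0.74 and -0.52, so the controls then share a sign and the mitochondrial features do not. The authors' values matched the scanner intensities better with ORF and intergenic names exchanged. Upstream and ORF below follow the scanner's names, and which naming is right was not tested.

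The promoters of some members that stood high, and of others near the array median, are shown so that their letters can be set beside the ratios that follow. Each is the 250 bases before the annotated transcript start in RefSeq (ASM294v3), 5′ to 3′ on the gene's strand. CCAAT, in either orientation, is in capitals. For qcr10, sdh1 and sdh4, where the upstream feature reached 1 on at least 1 array, the windows were:
qcr10 (chrII:2884072-2884321, plus strand): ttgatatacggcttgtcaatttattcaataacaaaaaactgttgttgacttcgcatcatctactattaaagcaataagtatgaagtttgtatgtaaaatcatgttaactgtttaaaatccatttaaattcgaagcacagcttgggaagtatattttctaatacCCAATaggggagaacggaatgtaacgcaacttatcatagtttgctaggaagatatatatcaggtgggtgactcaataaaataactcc
sdh1 (chrI:3798463-3798712, minus strand): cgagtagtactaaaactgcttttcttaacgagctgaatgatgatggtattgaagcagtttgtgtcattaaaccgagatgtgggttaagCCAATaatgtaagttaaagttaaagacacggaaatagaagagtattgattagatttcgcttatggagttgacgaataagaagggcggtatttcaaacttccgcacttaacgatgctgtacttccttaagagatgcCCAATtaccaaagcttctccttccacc
sdh4 (chrII:2035810-2036059, plus strand): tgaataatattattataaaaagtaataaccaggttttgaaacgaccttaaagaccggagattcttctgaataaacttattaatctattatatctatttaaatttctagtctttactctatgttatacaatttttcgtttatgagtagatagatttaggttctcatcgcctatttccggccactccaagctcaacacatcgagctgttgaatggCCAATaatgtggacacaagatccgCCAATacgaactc
The upstream features of atp1, atp3 and cox12 had means of 0.21, 0.19 and 0.17, and of their windows that of atp3 holds the word and the others do not:
atp1 (chrI:5256476-5256725, plus strand): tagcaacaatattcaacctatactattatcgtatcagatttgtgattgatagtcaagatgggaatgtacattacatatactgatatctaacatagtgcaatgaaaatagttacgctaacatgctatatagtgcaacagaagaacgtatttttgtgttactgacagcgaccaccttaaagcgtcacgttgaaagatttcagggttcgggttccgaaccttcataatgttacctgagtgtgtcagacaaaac
atp3 (chrII:1085625-1085874, plus strand): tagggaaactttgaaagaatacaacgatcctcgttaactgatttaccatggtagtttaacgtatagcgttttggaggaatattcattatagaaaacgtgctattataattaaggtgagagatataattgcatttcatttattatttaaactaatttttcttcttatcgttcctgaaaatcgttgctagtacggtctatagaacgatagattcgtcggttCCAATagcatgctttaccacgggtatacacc
cox12 (chrIII:1782075-1782324, minus strand): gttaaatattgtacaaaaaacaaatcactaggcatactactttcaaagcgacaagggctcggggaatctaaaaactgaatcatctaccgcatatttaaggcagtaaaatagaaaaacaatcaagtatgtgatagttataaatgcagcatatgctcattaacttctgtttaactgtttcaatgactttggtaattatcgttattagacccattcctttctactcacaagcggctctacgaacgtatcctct
A window with an annotated leader and free of other protein-coding transcripts was available for 21 of the 31 members, and those of cyc1, cox8 and cox13 are not among them. The windows shown are examples. Over all members the upstream medians with and without the word were 0.51 and 0.32 on replicate 1, 0.77 and 0.51 on replicate 2, and 0.25 and 0.40 on replicate 3.

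Tup11 precipitate was enriched upstream of cyc1, qcr10, cox8 and cox13, in the likely direction. These 4 were above the array median among the 9 upstream features with a ratio on all 3 arrays (limma, adjusted p under 0.05 over 4281 features). In the same fit 21.6% of all 1548 intergenic features were above and 1.87% below, so a raised upstream feature is common on these arrays, and 9 features are few to read against it. The median of the 9 member means was 0.49, against 0.32 for all intergenic features. With replicate 3 turned none of the 9 passed. In the likely direction none passed below, also at an unadjusted p under 0.05, and the other 5 did not pass in either direction. Over all features 396 (9.25%) were above and 452 (10.6%) below. Those counts became 477 and 200 when arrays were centred on the shared features, which moves every mean up by 0.16, and 403 and 96 after loess, which moves the median by 0.13.

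**Figure D1:**
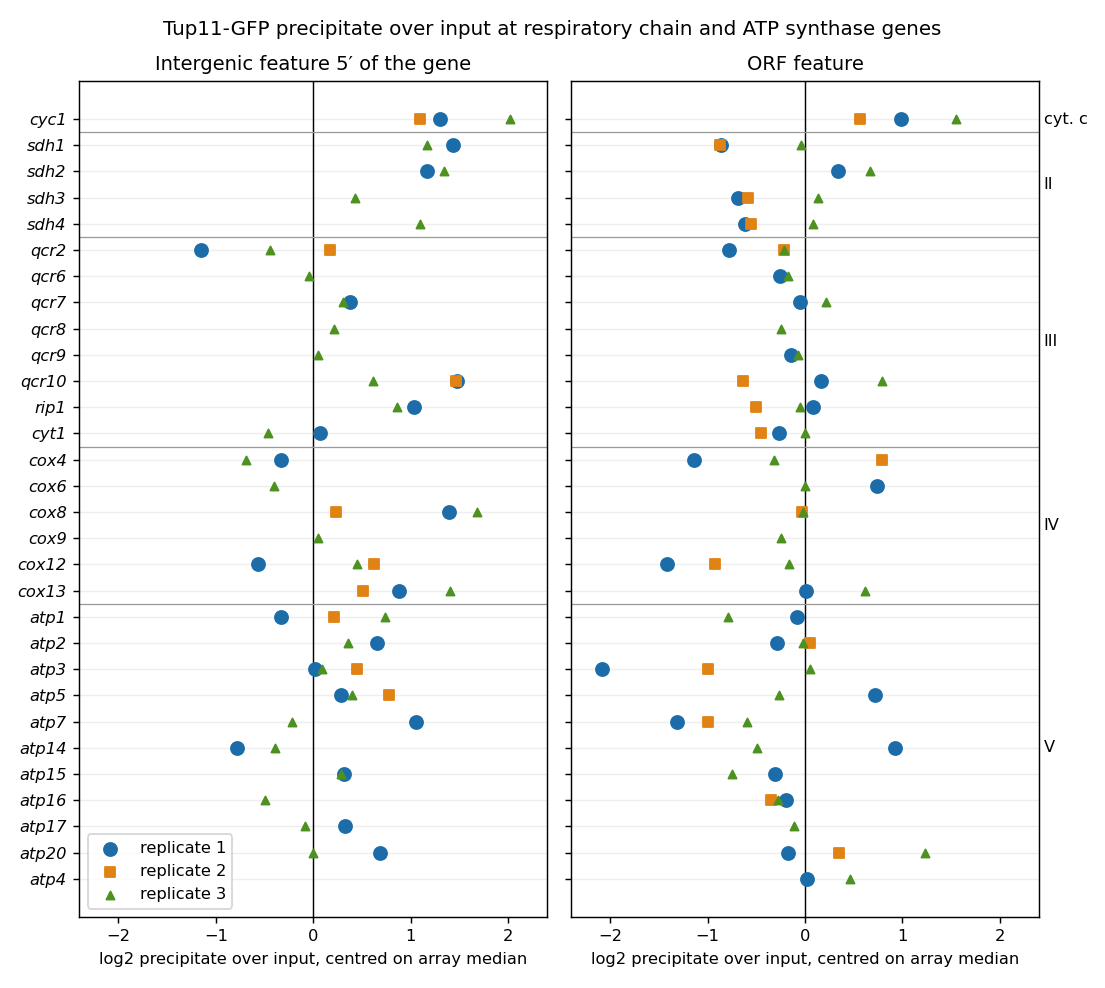
Each row is a member gene and each marker its log2 precipitate over input on 1 array (circle, replicate 1; square, replicate 2; triangle, replicate 3), for the upstream feature on the left and the ORF feature on the right. Grey lines separate cytochrome c and complexes II to V. The cyc1 markers lie right of 0 on all 3 arrays in both panels, with upstream values of 1.30, 1.09 and 2.02.

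Cytochrome c is the mobile carrier between complexes III and IV, and its gene cyc1 had the highest upstream mean of the 9 in the likely direction; in the same letters its mean was 0.12, below the 0.78 of qcr10. The cyc1 upstream feature read 1.30, 1.09 and 2.02 on replicates 1 to 3, a mean of 1.47 ± 0.49 (SD, n = 3; limma adjusted p = 0.000756). All 3 arrays were above 1, with replicate 2 read from 1 of the 2 spots. The gap it represents is only 179 bases long (chrIII:1714556-1714734, RefSeq ASM294v3), between SPCC191.06 and cyc1, which run in the same direction.

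The cyc1 ORF was also above the median, with 0.99, 0.57 and 1.55, a mean of 1.04 ± 0.50 (SD, n = 3; limma adjusted p = 0.0242). Its mean in the same letters was 0.0010. It was the only 1 of 15 member ORFs measured on all arrays that passed the test above the median, where 2.27% of all 2733 ORF features did. Enrichment around cyc1 took in the neighbour on its 5′ side: the SPCC191.06 ORF read 1.74, 0.73 and 1.96, a mean of 1.48 ± 0.65 (SD, n = 3; limma adjusted p = 0.000727), or 0.17 in the same letters. The feature upstream of SPCC191.06 read 0.90 on replicate 1 and 1.17 on replicate 3. On the other side of cyc1, the feature upstream of lto1 read 1.08, -0.10 and 1.73. The high features thus ran from the gap before SPCC191.06 to the gap after cyc1, while the lto1 ORF read -0.34, -0.50 and -0.0023. How much of the cyc1 signal comes from fragments centred in the neighbouring gaps was not tested.

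**Figure D2:**
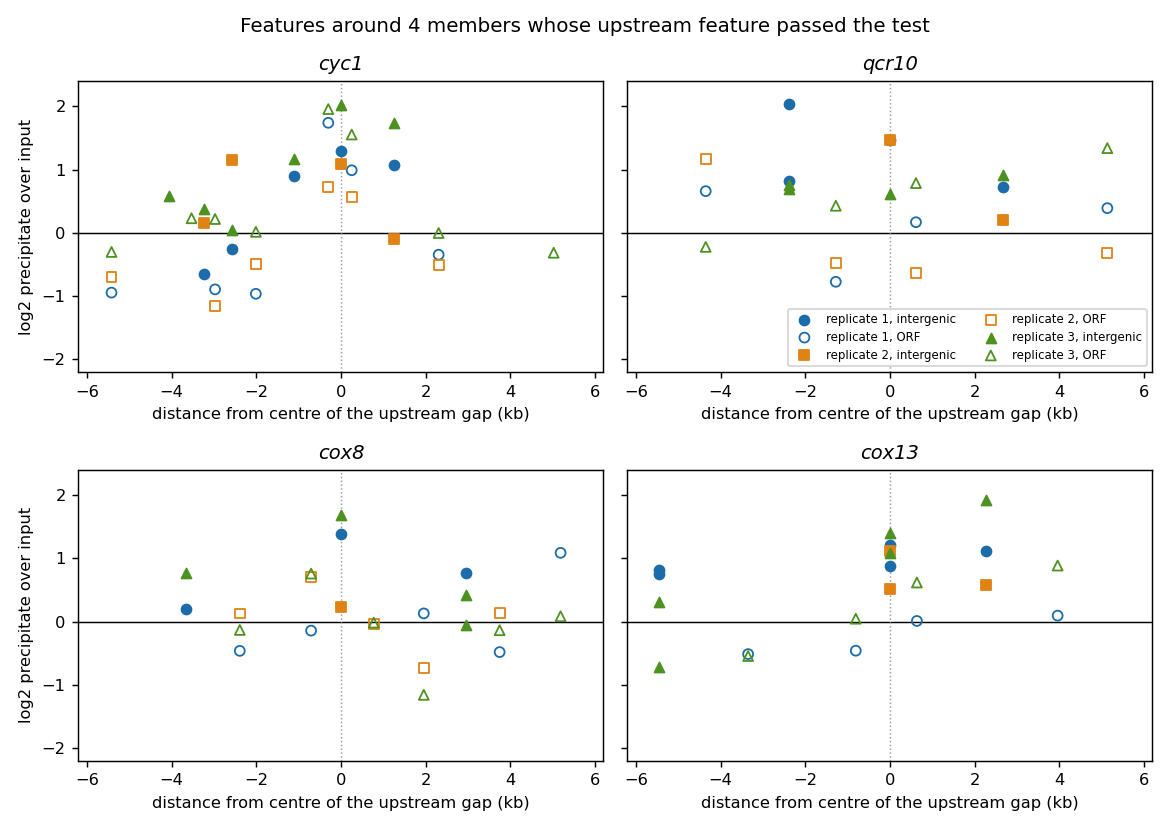
Log2 precipitate over input of every measured feature against its distance in kb from the centre of the upstream gap of cyc1, qcr10, cox8 and cox13, with the gene to the right (filled markers, intergenic features; open markers, ORFs; circle, square and triangle, replicates 1, 2 and 3). Around cyc1 neighbouring features are also high, as is the feature upstream of SPCC1739.08c near cox13 (1.12, 0.57 and 1.92). At cox8 the adjacent ORFs on both sides lie between -0.14 and 0.76, while the cut11 ORF further away reads 1.09 on replicate 1 and 0.08 on replicate 3.

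Complex II, succinate dehydrogenase, feeds electrons from the citric acid cycle into the chain. All 6 measured values of its 4 upstream features were above 0, but none had a ratio on all 3 arrays, because replicate 2 gave none for any of them. Of all intergenic features, 72.0% were above 0 on replicate 1 and 62.4% on replicate 3. Upstream of sdh1, the flavoprotein subunit, the values were 1.44 on replicate 1, from 1 of the 2 spots, and 1.17 on replicate 3. Upstream of sdh2, the iron-sulfur subunit, they were 1.17 and 1.34. Both genes were thus above 1 on each array that measured them, while in the same letters their means were 0.13 and -0.08. Over features with at least 2 arrays, where 15.4% of 3580 intergenic features were above the median and 0.726% below, sdh1 (mean 1.30, limma adjusted p = 0.0227) and sdh2 (mean 1.25, limma adjusted p = 0.0302) passed. That fit gives 5 upstream members above of 21, the others being cyc1, qcr10 and cox8, and none below. The cox13 feature no longer passed (limma adjusted p = 0.0549). Among member ORFs it called cyc1 above, where 2.37% of 4309 ORF features were, and atp3 and atp7 below, where 9.51% were.

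The membrane anchor subunits sdh3 and sdh4 had a ratio on replicate 3 alone, 0.43 and 1.09. Across the gap shared with rpc37, the feature named for that gene read 1.49 and 0.42 on replicates 1 and 3, close to sdh3 on the latter. The sdh4 gap is shared with qcr1, and the feature named for qcr1 read -0.11 and 0.39. On replicate 3, sdh4 was therefore above the other feature of its own gap, a difference seen on 1 array only. The gap of sdh1 is shared with azr1, whose feature read 0.78, 0.85 and 0.76 and did not pass (limma adjusted p = 0.0972). Of the complex II ORFs, sdh1 read -0.86, -0.87 and -0.04, sdh3 -0.69, -0.58 and 0.14, and sdh4 -0.62, -0.56 and 0.08. The sdh2 ORF read 0.34 and 0.66 on replicates 1 and 3, above 0 like its upstream feature. On replicate 3, 3 of the 4 ORFs were above 0, where 37.7% of all ORF features were.

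Complex III passes electrons from ubiquinol to cytochrome c. Among its 8 genes, qcr10, a small accessory subunit, had a raised upstream feature, with 1.47, 1.46 and 0.61, a mean of 1.18 ± 0.49 (SD, n = 3; limma adjusted p = 0.00879). Replicate 3 was the lowest of the 3 here, the reverse of cyc1. The replicate 2 value came from 1 of the 2 spots. With undetected input at a floor it was 0.57, and qcr10 did not pass (limma adjusted p = 0.220). Its gap measures 803 bases (chrII:2883557-2884359), and the qcr10 ORF behind it read 0.17, -0.64 and 0.79, on both sides of 0. The feature on the far side of SPBP4H10.07, the gene before qcr10, read 2.03 on replicate 1 and 0.69 on replicate 3. A second feature of that gap, named for cut14, read 0.82 and 0.75. The SPBP4H10.07 ORF between the gaps had a mean of -0.27 ± 0.63 (SD, n = 3).

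The qcr2 gene for a core protein had the lowest upstream mean of the 9, with -1.15, 0.17 and -0.44, a mean of -0.47 ± 0.66 (SD, n = 3). Its arrays lay on both sides of 0 and the feature did not pass (limma adjusted p = 0.365). Upstream of rip1, the Rieske iron-sulfur protein, the values were 1.03 and 0.86 on replicates 1 and 3, both high. Upstream of cyt1, cytochrome c1, they were 0.06 and -0.47. Apart from qcr10, the small subunits lay closer to the median where they had a ratio. On replicates 1 and 3 qcr7 read 0.38 and 0.31. On replicate 3 alone qcr8 read 0.21, qcr9 0.05 and the hinge protein gene qcr6 -0.05. On replicate 1 the features of qcr8, qcr9 and qcr6 had precipitate but no input signal, so they give no value there. Complex III thus spread from -0.47 to 0.86 on replicate 3, with a median of 0.13.

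Complex IV, cytochrome c oxidase, reduces oxygen; its catalytic core is mitochondrially encoded, and the nuclear cox genes encode subunits around it. The cox8 upstream feature read 1.39, 0.24 and 1.68, a mean of 1.10 ± 0.76 (SD, n = 3; limma adjusted p = 0.0156). Replicate 2 stood well below the other arrays, and in the same letters the mean was -0.018. Its gap of 1043 bases (chrI:3043308-3044350) lies between cox8 and med9, which run apart from each other, and the cox8 ORF read -0.03 on replicate 2 and -0.02 on replicate 3. The med9 ORF had a mean of 0.44 ± 0.51 (SD, n = 3) and did not pass.

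Upstream of cox13 the values were 0.88, 0.51 and 1.40, a mean of 0.93 ± 0.45 (SD, n = 3; limma adjusted p = 0.0474), the called feature nearest the threshold. A second feature covers the same 600-base gap (chrIII:2047336-2047935), named for the divergent gene mug33, and it read 1.21, 1.12 and 1.08, a mean of 1.14 ± 0.07 (SD, n = 3; limma adjusted p = 0.0121). In the same letters these means were -0.0050 and 0.42. In the likely direction both features of this gap were high, and the signal cannot be assigned to either gene. The cox13 ORF read 0.01 and 0.62 on replicates 1 and 3. Beyond it, the feature upstream of SPCC1739.08c read 1.12, 0.57 and 1.92 on replicates 1 to 3.

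Of the remaining complex IV genes, cox12 was measured on all arrays and did not pass, and cox4, cox6 and cox9 had too few ratios for that test. Upstream of cox12 the values were -0.57, 0.62 and 0.45 (limma adjusted p = 0.776). Upstream of cox4 they were -0.34 and -0.69 on replicates 1 and 3, the lowest on replicate 3 of all members. On replicate 3 alone, cox9 read 0.04 and cox6 -0.40. The complex thus held both the second highest upstream value on replicate 3, at cox8, and the lowest.

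Complex V held no upstream feature that passed. The 3 upstream features measured on all arrays were those of atp1, atp3 and atp5, which encode the catalytic head's alpha and gamma subunits and the stalk protein OSCP. The values of atp5 were 0.28, 0.78 and 0.40, a mean of 0.49 ± 0.26 (SD, n = 3; limma adjusted p = 0.353). Those of atp1 were -0.33, 0.21 and 0.73, and those of atp3 were 0.02, 0.45 and 0.09. All 3 means lay between 0.19 and 0.49, near the median of all intergenic features.

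With ratios on replicates 1 and 3, the upstream feature of atp2, the beta subunit, read 0.65 and 0.36, and that of atp15, the epsilon subunit, 0.31 and 0.29. For the stator and membrane subunits named as in budding yeast, atp7 read 1.05 and -0.22, atp20 0.69 and -0.0015, atp17 0.32 and -0.08, and atp14 -0.79 and -0.40. These pairs fell on both sides of 0, with only atp14 low on both arrays. The delta subunit gene atp16 read -0.49 on replicate 3 alone. On that array, which measured every member, 5 of 10 complex V upstream features were above 0, from -0.49 to 0.73, against 4 of 4 in complex II, 5 of 8 in complex III and 4 of 6 in complex IV. Of all intergenic features 62.4% were above 0 on replicate 3. Differences between complexes were not tested.

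Across the upstream features with a ratio on both replicates 1 and 3, 12 of 21 were above 0 on both, where 51.8% of 3518 intergenic features were. Those above 1 on both were cyc1, sdh1, sdh2 and cox8, 4 of 21, where 11.7% of all intergenic features were. On replicate 3 alone, 6 of 29 were above 1, where 13.0% of 4945 intergenic features were, and the median was 0.29 against 0.15. With replicate 3 turned, 4 of 21 were above 0 on both arrays and none above 1 on both, none of 29 was above 1 on replicate 3, and the median there was -0.29. On replicate 1 the 21 members had a median of 0.38 against 0.49 for all intergenic features. The order of the members against all intergenic features thus turned with the array. By the authors' stated rule for a binding list, a median percentile of at least the 85th over the arrays, cyc1, qcr10 and cox8 were on the list, 3 of 9 upstream features where 23.8% of all intergenic features were. With replicate 3 turned, 2 members were on the list. No member ORF was on it in the likely direction, where 2.49% of all ORFs were.

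**Figure D3:**
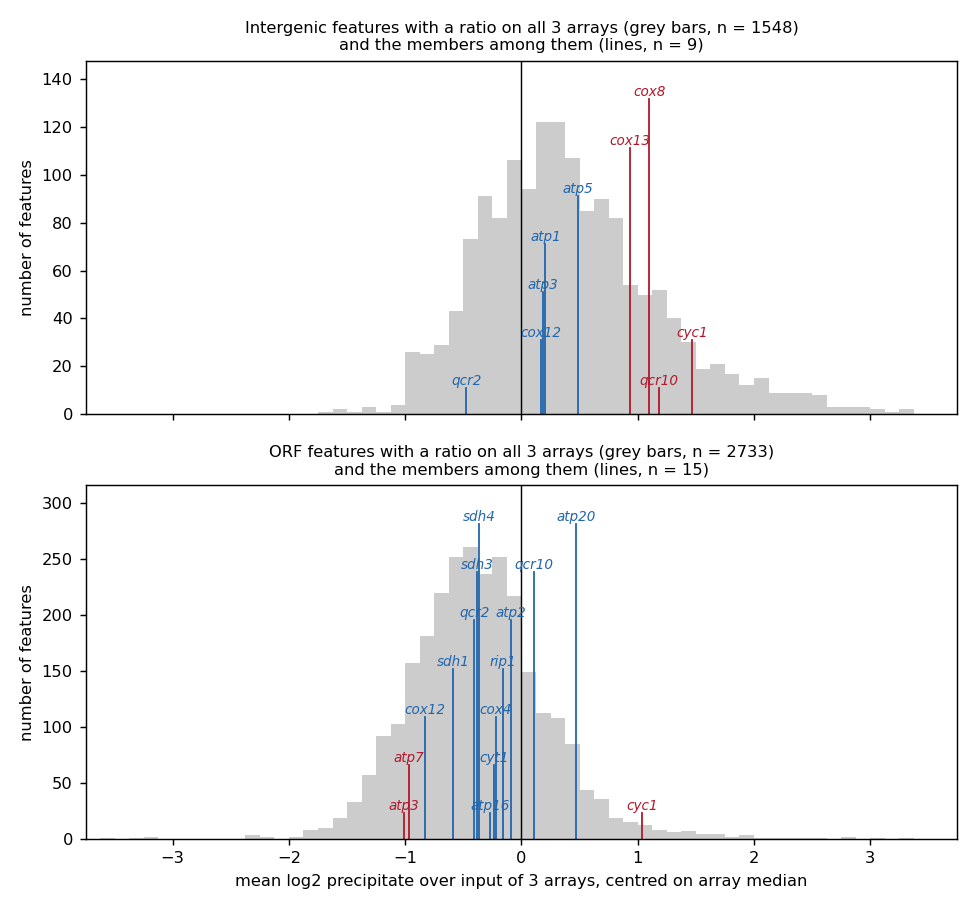
Histograms of mean log2 precipitate over input for all features with a ratio on 3 arrays, 1548 intergenic (top) and 2733 ORF (bottom), with a line for each member (red, limma adjusted p under 0.05; blue, not; line heights only separate the names). The 4 called upstream features, from 0.93 to 1.47, sit in the upper part of the intergenic distribution, and cyc1 stands apart from the other member ORFs at 1.04.

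Member ORFs lay mostly below the array median, as ORFs did in general. The median of the 15 member means was -0.27, against -0.39 for all ORFs. Of these means 12 were below 0, and 14 in the same letters. Only 2 passed the test below the median, both of complex V, where 15.5% of all ORF features did. The atp3 ORF read -2.08, -0.99 and 0.05, a mean of -1.01 ± 1.07 (SD, n = 3; limma adjusted p = 0.0295). The arrays disagree there, with replicate 3 near the median and replicate 1 the lowest ratio of any member. The atp7 ORF, for a stalk subunit, read -1.32, -0.99 and -0.60, a mean of -0.97 ± 0.36 (SD, n = 3; limma adjusted p = 0.0373), below 0 on every array. In the same letters the means of atp3 and atp7 were -1.04 and -0.57, and neither passed. Next came the cox12 ORF with -1.41, -0.92 and -0.16, a mean of -0.83 ± 0.63 (SD, n = 3; limma adjusted p = 0.0800), which did not pass.

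At the other end of the ORFs, after cyc1, atp20 read -0.17, 0.35 and 1.24 and qcr10 had a mean of 0.11 ± 0.71 (SD, n = 3), and neither passed. The remaining 9 member ORFs with 3 ratios had means from -0.59 (sdh1) to -0.09 (atp2). Of the 15 ORFs with fewer ratios, those with values on replicates 1 and 3 included atp14, at 0.92 and -0.50, and atp4, the stalk's subunit b and the member without an upstream feature, at 0.02 and 0.46. On replicate 3, which measured all 30, member ORFs ran from -0.79 (atp1) to 1.55 (cyc1), with 2 above 1 where 3.31% of all ORFs were. Member ORFs are short, with a median of 580 bases against 1249 for all ORF features. Their median GC content was 41.0% against 38.9%. GC content and length were also regressed out over ORF and intergenic features together. The median of the member ORF means was then 0.0083 and 0 passed below, with atp3 and atp7 at limma adjusted p = 0.0939 and 0.174. The part of length alone was not tested.

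Upstream and ORF features were compared within genes. Both features had ratios on all arrays for atp3, cox12, cyc1, qcr10 and qcr2. The mean difference of these 5 genes was 0.84, 1.20 and 0.14 on replicates 1 to 3, that is 0.73 ± 0.54 (SD, n = 3), and 0.80 ± 0.19 over 741 genes. The exact sign-flip permutation test over the 3 arrays gave p = 0.25 (two-sided), the smallest that 3 arrays allow. The difference was largest at atp3, with 2.10, 1.44 and 0.04, where the ORF was low. It was 0.43 ± 0.11 at cyc1, where the ORF was high as well, and at qcr2 it was -0.37, 0.39 and -0.23, a mean of -0.07 ± 0.40, on both sides of 0. Whether members and other genes differ was not tested. On replicate 3 alone the upstream feature was the higher in 22 of 29 members (75.9%), against 72.0% of 4467 genes; with replicate 3 turned these shares become 7 of 29 (24.1%) and 28.0%.

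**Figure D4:**
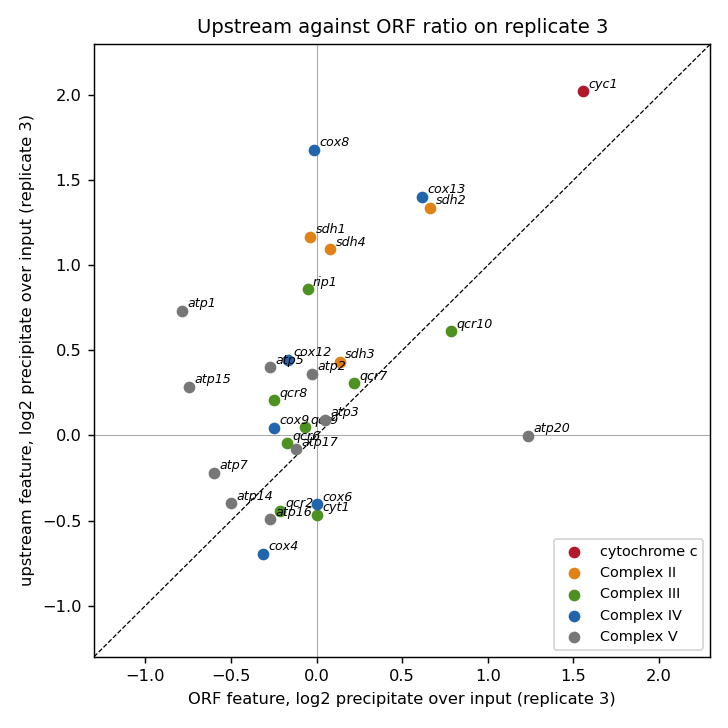
Log2 precipitate over input of the upstream feature against the ORF feature on replicate 3, the array that measured all 29 members with both, coloured by complex. Points above the dashed line of equal values (22 of 29) are higher upstream; cyc1 is high on both axes, cox8, sdh1 and sdh4 upstream only, and atp20 in its ORF only.

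The members were set beside words in their promoters that fission yeast regulators are known to bind. CCAAT (or ATTGG), the word of the CCAAT-binding complex, occurred in the 250-base window of 19 of 31 members (61.3%) and of 35.3% of 5112 genes. In cyc1 it lies 65 to 61 bases before the transcript start and at 2 further places of a window that overlaps SPCC191.06, in qcr10 87 to 83 bases before it and in sdh4 at 37 to 33 and 13 to 9 bases before it. Cox8 and cox13, whose upstream features passed, have none, and atp3 and qcr2, which did not pass, have it. On replicate 3 the upstream features of the 18 members with the word and a feature had a median of 0.25, and those of the 11 without it 0.40. Over all genes the medians were 0.13 with it (1673 features) and 0.15 without it (2999 features). Turning replicate 3 turns that order. On replicate 1 the members with the word were the higher, 0.51 for 14 members with it and 0.32 for 7 without. CCCCTC (or GAGGGG), a word of the Rst2 type, occurred in none of the windows and in 1.70% of all. TGACGT (or ACGTCA), the Atf1 type, occurred in rip1 alone, and in 5.52% of all. Different words lay within 5 bases of each other in 1 of all the windows, and in no member's. A word in a window describes the sequence and does not show a bound factor.

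Genes that supply or surround the respiratory chain were read on the same arrays. In the citric acid cycle and pyruvate dehydrogenase, 5 of 10 upstream features measured on all arrays were above the median and none below. Of all intergenic features 21.6% were above and 1.87% below, and 10 features are few to read against that. The median of the list was 0.71 against 0.32 for all intergenic features. They include that of aco1, an aconitase gene, which read 1.60, 1.46 and 0.52, a mean of 1.19 ± 0.59 (SD, n = 3; limma adjusted p = 0.00820). The gene lsc2 for a succinyl-CoA ligase subunit had a mean of 1.46 ± 0.44 and idh2 for an isocitrate dehydrogenase subunit 1.19 ± 0.56 (SD, n = 3; limma adjusted p = 0.000822 and 0.00803). These 3 were above 0 on every array, and in the same letters their means were 0.85 for aco1, 0.82 for lsc2 and -0.03 for idh2. Of the 14 ORFs of this list with 3 ratios, 3 were below the median (idh1, kgd1 and pda1) and none above. Over all ORF features 15.5% were below and 2.27% above.

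Of the pair anc1 and por1, which exchange ADP, ATP and metabolites across the mitochondrial membranes, the upstream feature of anc1, the ADP/ATP carrier, read 2.37, 1.87 and 1.97, a mean of 2.07 ± 0.26 (SD, n = 3; limma adjusted p = 4.2e-07). In the likely direction this was above the mean of every respiratory chain or ATP synthase feature measured on all arrays; in the same letters it was 0.76, below qcr10 at 0.78. Among genes for assembly of the complexes, 1 of 2 upstream features was above, cbp4 with a mean of 2.03 ± 0.33 (SD, n = 3; limma adjusted p = 7.8e-07), in a gap shared with pho7 (0.42 in the same letters), and 1 of 7 ORFs was below, that of atp12. In ubiquinone synthesis, other electron entry and the CCAAT-binding complex no upstream feature passed, of 3, 2 and 2 measured on all arrays. In each, 1 ORF was below (coq6, dld2 and php2), of 3, 4 and 4 measured. These lists are short beside the shares over all features, 21.6% of intergenic features above and 15.5% of ORF features below.

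The calls rest on few arrays. Every feature had the same standard error in this fit, so adjusted p follows the mean and a feature's own spread is its SD. Without replicate 1 no member passed. Without replicate 2, cyc1 (adjusted p = 0.00464 upstream and 0.0487 in the ORF) and cox8 upstream (0.0109) passed with limma, and without replicate 3, the values within print batch E120D, cyc1 (0.0102) and qcr10 (0.00131) passed upstream, with the ORFs of atp3, atp7 and cox12 below. With the same channel letters on all arrays no feature of the array passed (limma), and 147 of 4281 had an unadjusted p under 0.05, none of them a member.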

How the data were processed

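Replicates are the 3 two-colour arrays of 1 group, and p-values measure only the spread between them. In the main fit that spread was pooled over all features, so p does not reflect a feature's own spread. Per spot, the scanner tables give a linear intensity in channels A and B, integrated after local background subtraction by Spotfinder, per the labels' protocols and the file headers; rejected spots are listed at 0. The deposited value tables hold log10 values that follow 1 channel (r = 0.64, 0.49 and 0.96 on replicates 1 to 3, with ORF and intergenic names exchanged), so they served for direction and as an alternative. With their own names, r for the same channels was 0.24, 0.05 and 0.24. The sources thus disagree on which spots are ORF and which intergenic, and every upstream or ORF label here rests on the scanner's names. What the authors computed for them, beyond scaling to the 50th percentile and ranking per the labels' protocols, is not settled.

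From the deposited intensities, log2 ratios of spots with signal in both channels were averaged per feature and centred on the array median. The number of arrays limits the precision. Features with a ratio on all 3 arrays (4281) were tested against 0 with limma 3.58.1 in R 4.3.3, with Benjamini-Hochberg adjustment over all of them and a threshold of 0.05. On simulated data, 36 of 100 features changed by 1 on the log2 scale and 100 of 100 changed by 2 were recovered among 4281 features, with 5 false calls. The simulation shuffled each array's deviations from the feature means across features, separately for each array. That removes structure shared between arrays, such as a print batch, so the false calls do not give the error rate of the real calls. Intergenic features were placed 5′ of the named gene because features named for the same divergent gap correlated (rho = 0.51, 1054 pairs, replicate 3) more than those of adjacent tandem genes (rho = 0.26, 1788 pairs); genes share arrays and are not replicates. Coordinates are whole gaps between genes in RefSeq ASM294v3, which matched 95.0% of features; the ends of the PCR products, and the build used to name the features, are not given in the sources used. RefSeq lists sdh4 as tim18. Words were counted on both strands of the 250 bases before each transcript start; other words within the windows were not searched.

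Members and gene lists were chosen with earlier results of these data known. Named were every member, each called feature with its value on every array, the 3 highest and 3 lowest upstream and ORF features, and at most 4 called features of each other list; 1 such feature and 1 promoter window are not reported here. Alternatives covered the direction of replicate 3, each array left out, loess (span 0.3), the centring, fewer arrays, the variance prior, dim spots (lowest 10% of either channel), the deposited values, each gap once and a list at the 90th percentile. Added after seeing the data were removal of GC content and length, and undetected input set to the 10th percentile of input.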

Additional observations from a re-analysis of the deposited data

How the results depend on the processing

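Member upstream features above the median numbered 3 to 5 of those tested under loess, shared centring, at least 2 arrays, a variance trend, no dim spots, each gap once, and removal of GC content and length. They were not always the same features. By limma adjusted p, qcr10 did not pass under loess (0.0882), cox8 with a variance trend (0.136) or cox13 with at least 2 arrays (0.0549). Over all alternatives that tested them, cyc1 kept its upstream call in 9 of 12, qcr10 in 5 of 11, cox8 in 6 of 12 and cox13 in 5 of 12. The other counts and medians were as follows. With replicate 3 in the same channel letters, and with the deposited values, no member and no feature passed in either direction (limma, 0 above and 0 below). An unadjusted limma p under 0.05 was reached by 147 of 4281 and 1049 of 6962 features, respectively. The member upstream median was then -0.0050 and 0.039, and the deposited values put 5 members on the list. With undetected input at a floor, 178 features were above, with 1 upstream member above, 0 ORFs above and 1 ORF below, an upstream median of 0.14 and 7 members on the list. Loess gave 96 features and 0 member ORFs below, an upstream median of 0.66 and 5 on the list. Features below fell to 200 with shared centring, 278 with a variance trend and 295 with GC content and length removed, each with 0 member ORFs below; the last gave an upstream median of 0.16 and 5 on the list. Without dim spots 1 member ORF was below and the upstream median was 0.79. With at least 2 arrays 653 features were above and 6 members were on the list. List counts come from sets of unlike size. The deposited values held 6962 features, at least 2 arrays 7889 and the floor 8260, against 4281 in the main fit. The share of all features on the list in these settings was not computed.

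Leaving out 1 array each gave 45 to 420 features above (45 without replicate 1) and 6 to 873 below, 0 to 2 member upstream features above, 0 to 1 member ORFs above and 0 to 3 below, and 2 to 5 on the list. The upstream-minus-ORF difference stayed positive in all settings run, from 0.32 to 1.02. For the deposited values (0.49) that sign depends on the exchange of ORF and intergenic names. In the same letters (0.63) the replicate 3 difference of 0.14 turns negative, and replicates 1 and 2 keep the mean above 0. Among single members, sign changes were as follows. In the same letters the upstream means of cox8 (-0.018), cox12 (-0.13), cox13 (-0.0050) and atp1 (-0.28) and the ORFs of qcr10 (-0.42) and atp20 (-0.35) were below 0. Leaving out 1 array each gave -0.062 to 0.54 for cox12 upstream, -0.056 to 0.47 for atp1 upstream, and for the ORFs -0.23 to 0.48 at qcr10, -0.28 to 0.015 at rip1, -0.72 to 0.23 at cox4 and -0.16 to 0.012 at atp2. With GC content and length removed, cox12 (-0.090) and atp3 (-0.081) upstream were below 0, and the ORFs of rip1 (0.18), cyt1 (0.091), cox4 (0.023), atp2 (0.24) and atp16 (0.0083) above it. At the floor, cox12 (-0.10), atp1 (-0.12) and atp3 (-0.14) upstream and the qcr10 ORF (-0.22) were below 0. Loess gave 0.075 for the sdh4 ORF, shared centring 0.0075 for rip1 and 0.076 for atp2, and the deposited values 0.0055 for rip1. Where no construction shows it, the cause was not tested.

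Missing input limits what can be read: 20 of 29 upstream features lack a ratio on replicate 2. No paired analysis was possible because all arrays belong to 1 group. Print batch as a random block was not run, since its correlation could not be estimated from 3 arrays.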
